A study of Mus musculus with 6 samples.

Results

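The 30 genes described here make fatty acids, triglycerides and cholesterol, or control the genes that do. They were taken by name from a list of lipid synthesis genes, and each was matched to a gene identifier of the deposited table, which holds 48005 of them. The list was split into a sterol branch of 16 genes, a fatty acid branch of 9 genes and a glycerolipid branch of 5 genes. RNA sequencing was done on hearts of C57BL/6 mice. In 3 hearts, labelled as conditional knock-in, the PPXY motifs of Txnip (thioredoxin-interacting protein, an arrestin-like protein that binds ubiquitin ligases through such motifs) were mutated to AAXA, and 3 hearts were wild-type and are also labelled Txnip flox. All 6 hearts carry MerCreMer, a tamoxifen-inducible Cre recombinase, and were treated with 4-hydroxytamoxifen, so Cre and the drug are shared by both groups. The labels name neither the promoter that drives Cre nor age, sex or batch. The wild-type hearts also serve another study, so that any difference in handling between the groups and the genotype cannot be told apart.

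Lipid synthesis starts from acetyl-CoA. In the sterol branch, acetyl-CoA units are joined by HMG-CoA synthase (Hmgcs1), carried through mevalonate and isoprenoids to squalene, closed to lanosterol and trimmed to cholesterol. The fatty acid branch makes malonyl-CoA, builds palmitate on fatty acid synthase and then elongates or desaturates it. The glycerolipid branch adds fatty acids stepwise to glycerol 3-phosphate until a triglyceride is complete. The transcription factors SREBP-1 and SREBP-2, made by Srebf1 and Srebf2, activate many of these genes and are held in the endoplasmic reticulum by INSIG proteins when sterols are plentiful. The heart takes most of its lipid from the blood, burns fatty acids as its main fuel and stores little triglyceride.

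Of the 30 genes, 29 had enough reads to be tested. In knock-in hearts 4 of them rose and 0 fell (edgeR quasi-likelihood test, Benjamini-Hochberg adjusted p under 0.05 over all genes tested). Gpam and Lpin1 belong to the glycerolipid branch, and Fasn and Acaca to the fatty acid branch. Among all 13067 genes tested, 6.74% rose and 4.09% fell. At an unadjusted p under 0.05 there were 9 members, against 27.7% of all genes. The groups did not overlap for 11 members, 7 higher and 4 lower in knock-in hearts, against 16.7% of all genes higher and 14.0% lower. By branch, 0 of 16 sterol genes, 2 of 8 fatty acid genes and 2 of 5 glycerolipid genes rose.

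Total counts were 31989883, 33805207 and 34016586 in knock-in hearts and 30329004, 30428964 and 30625093 in wild-type hearts. The targeted gene, Txnip, had 363, 751 and 670 CPM (counts per gene adjusted for sequencing depth) in knock-in hearts, against 887, 939 and 886 CPM in wild-type hearts (log2 fold change -0.60 ± 0.20 SE, edgeR adjusted p = 0.0698). Mutation of the PPXY motifs need not alter these counts, so they do not check the labels. Coverage along transcripts differed between the groups. The exonic length of each gene was divided equally into 3 parts. Each counted exon bin was assigned whole to the 5′, middle or 3′ part that held its middle, so the bins of the parts can differ in summed length. The median log2 ratio of counts in the 3′ to the 5′ part of the exons, over 1700 long genes, was -0.09, -0.24 and -0.17 in knock-in hearts and 0.69, 0.48 and 0.28 in wild-type hearts (exact permutation p = 0.1, two-sided, the smallest that 3 against 3 allows). Wild-type libraries thus held more of their reads near the 3′ end, and long genes were called higher more often. Of the 2614 tested genes with at least 7.29 kb of exons, 14.8% rose in knock-in hearts, against 1.11% of the 2614 shortest. Short genes were called lower more often: 7.92% of the shortest fell, against 1.91% of the longest. The part of this coverage difference in the results was not tested, and values by position stand beside them.

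**Figure D1:**
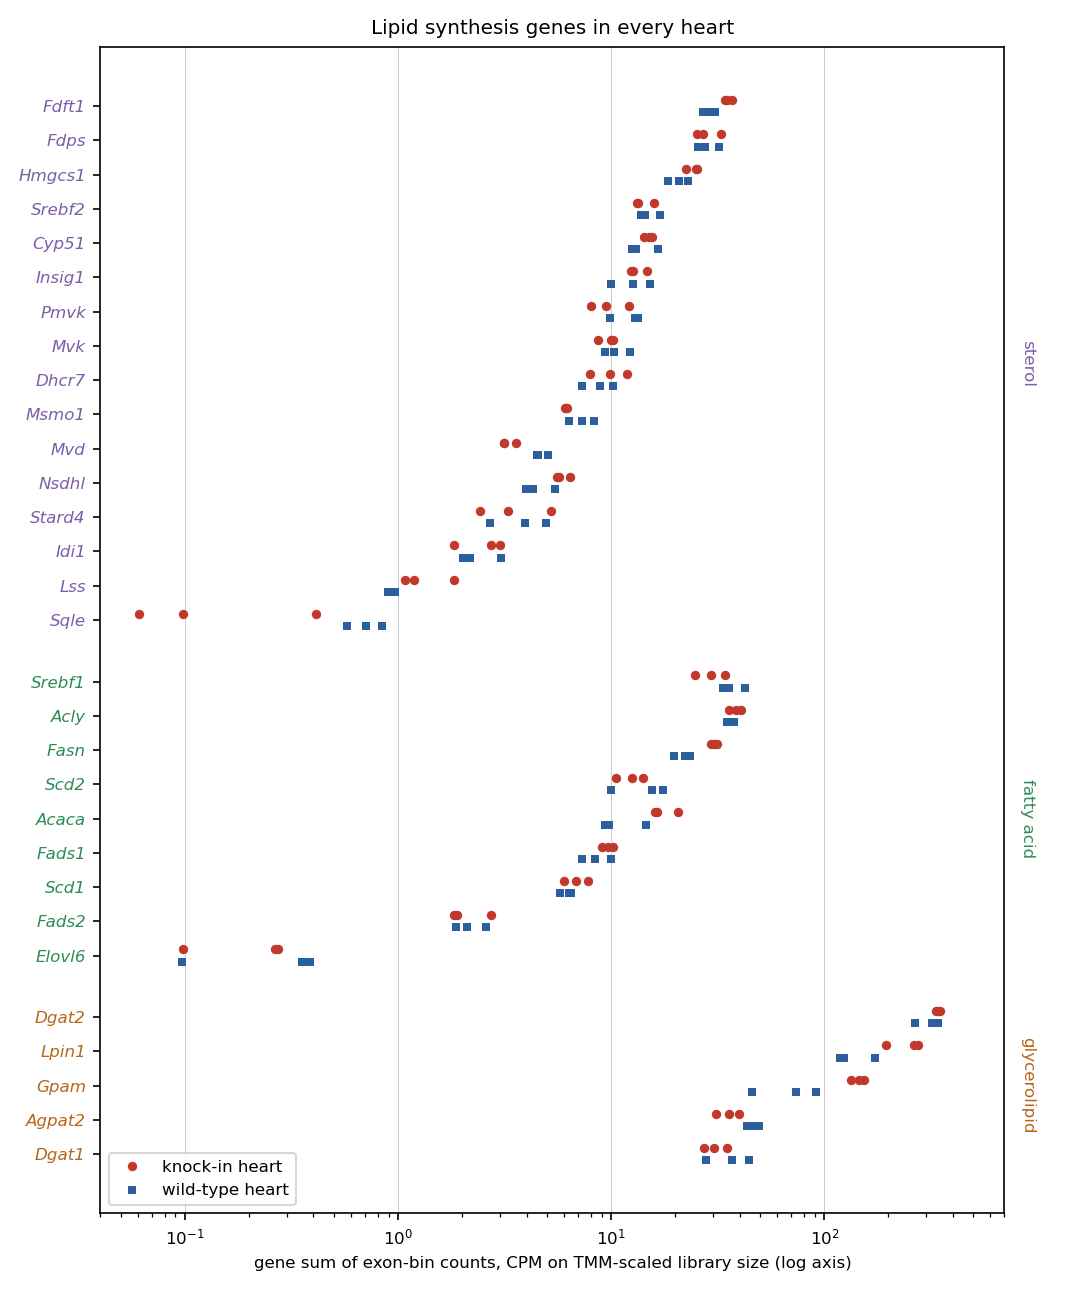
Level of each lipid synthesis gene in every heart, in CPM on a log axis, with knock-in hearts as red circles above wild-type hearts as blue squares, grouped by branch and ordered by the wild-type mean. Gpam, Lpin1, Fasn and Acaca have all 3 knock-in hearts to the right of all 3 wild-type hearts, and most sterol genes have groups that overlap.

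The glycerolipid branch held the genes with the largest increases. Gpam, mitochondrial glycerol-3-phosphate acyltransferase, which adds the first fatty acid to glycerol 3-phosphate, had 133, 154 and 146 CPM in knock-in hearts, against 45.8, 73.3 and 91.3 CPM in wild-type hearts. All knock-in hearts stood above all wild-type hearts, and the wild-type hearts varied among themselves far more than the knock-in hearts did. The mean was 144 ± 10.7 CPM in knock-in hearts and 70.2 ± 22.9 CPM in wild-type hearts (SD, n = 3 each), a 2.06-fold increase (log2 1.04 ± 0.19 SE, edgeR adjusted p = 0.00846). Without knock-in heart 2 the edgeR adjusted p was 0.0553, and leaving out any other heart kept Gpam past the threshold. These are bulk heart samples, in which a change in the number of cells of a type and a change in RNA per cell cannot be told apart.

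The increase of Gpam (chr19:55069734-55099451, GRCm38, minus strand) was present along the whole transcript. Exon bins of at least 40 bases and 60 counts were taken as having enough reads. All 20 such bins had higher CPM in every knock-in heart than in any wild-type heart. Their ratios lay between 1.51, in the 3′ end bin of 1313 bases, and 2.93. That last bin held 795, 905 and 1006 counts in knock-in hearts and 420, 604 and 693 counts in wild-type hearts. Fits on the 5′, middle and 3′ part of the exons gave log2 fold changes of 1.08, 1.06 and 0.77, with edgeR adjusted p-values of 0.00975, 0.00752 and 0.0256. Each of these fits has its own scaling, from reads at the same position. The first exon that the table lists for Gpam held 4, 2 and 2 counts in knock-in hearts and 4, 6 and 10 counts in wild-type hearts, too few to compare, and the exons of the annotated start farther upstream were not among the table's bins. The RefSeq window next to the listed first exon (chr19:55099478-55099727) held 0 matches to the motifs searched. The 250 bases before the upstream start are shown because Gpam had the largest increase (RefSeq, GRCm38.p6). Capitals mark a CCAAT box, here read on the opposite strand, 74 bases before the start.
Gpam (chr19:55127239-55127488, minus strand): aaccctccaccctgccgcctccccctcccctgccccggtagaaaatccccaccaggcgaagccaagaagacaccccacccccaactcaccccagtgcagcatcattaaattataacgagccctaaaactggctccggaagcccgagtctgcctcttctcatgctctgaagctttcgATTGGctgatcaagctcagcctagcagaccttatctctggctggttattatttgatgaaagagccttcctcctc

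Lpin1 (chr12:16535669-16589770, minus strand), whose product lipin 1 removes phosphate from phosphatidate to make diacylglycerol and also acts as a transcriptional coactivator, had 195, 274 and 264 CPM in knock-in hearts, against 118, 123 and 172 CPM in wild-type hearts. The groups did not overlap, and the lowest knock-in heart was close to the highest wild-type heart. The mean was 245 ± 42.8 CPM in knock-in hearts and 138 ± 29.7 CPM in wild-type hearts (SD, n = 3 each), a 1.78-fold increase (log2 0.83 ± 0.16 SE, edgeR adjusted p = 0.0108). The edgeR adjusted p was 0.0729 without knock-in heart 2, 0.0665 without wild-type heart 1 and 0.0696 without wild-type heart 2. Along the transcript, all 20 bins with enough reads were higher on average in knock-in hearts, and for 19 of them the groups did not overlap.

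The bin in which the Lpin1 groups overlapped was the last one, of 2904 bases. It held 1620, 2123 and 2253 counts in knock-in hearts, against 1763, 1552 and 1835 counts in wild-type hearts, a ratio of mean CPM of 1.11, while other bins reached 2.99. The fit on the 5′ part of the exons gave a log2 fold change of 1.12 (edgeR adjusted p = 0.00549), and that on the 3′ part 0.34 (edgeR adjusted p = 0.136). The increase of Lpin1 therefore passed the threshold in the 5′ exons and did not at its 3′ end. The first Lpin1 exon among the counted bins, of 53 bases, held 19, 16 and 11 counts in knock-in hearts and 1, 2 and 4 counts in wild-type hearts (exact permutation p = 0.1, two-sided, the smallest possible), without overlap. A RefSeq start of Lpin1 lies farther upstream, outside the counted bins.

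The other 3 glycerolipid genes did not pass the test. Agpat2, which adds the second fatty acid to make phosphatidate, had 39.7, 31.1 and 35.5 CPM in knock-in hearts, against 49.6, 47.0 and 43.4 CPM in wild-type hearts. Every knock-in heart was below every wild-type heart, and the log2 fold change was -0.40 ± 0.13 SE (edgeR adjusted p = 0.0613). Of its 16 bins, 8 had enough reads, and none of these had a higher mean in knock-in hearts. The 5′ part of its exons alone gave a fold change of 0.46 (log2 -1.12, edgeR adjusted p = 0.0157). DESeq2, which called 14.9% of all genes, placed Agpat2 past the threshold, with an adjusted p of 0.0355; over 22 settings its adjusted p lay between 0.0157 and 0.538.

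The DGAT enzymes complete the triglyceride. Dgat2 had 340.0, 349 and 334 CPM in knock-in hearts, against 321, 341 and 265 CPM in wild-type hearts (log2 0.14 ± 0.11 SE, edgeR adjusted p = 0.441). Dgat1 had 27.3, 35.1 and 30.3 CPM in knock-in hearts, against 44.1, 36.7 and 27.7 CPM in wild-type hearts (log2 -0.23 ± 0.17 SE, edgeR adjusted p = 0.404). Both genes had groups that overlapped. Per kilobase of exon, Dgat2 had the highest level of all 30 genes, with 111 CPM per kb in knock-in hearts and 100 in wild-type hearts. Lpin1 followed with 42.7 CPM per kb in knock-in and 24.1 in wild-type hearts. Gpam came next among knock-in hearts with 37.7 CPM per kb, ahead of Agpat2 with 16.6. Among wild-type hearts Gpam had 18.3 CPM per kb and Agpat2 had 21.9. A read that spans several bins is counted in each, so that levels per length are inflated for genes with many short exons.

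**Figure D2:**
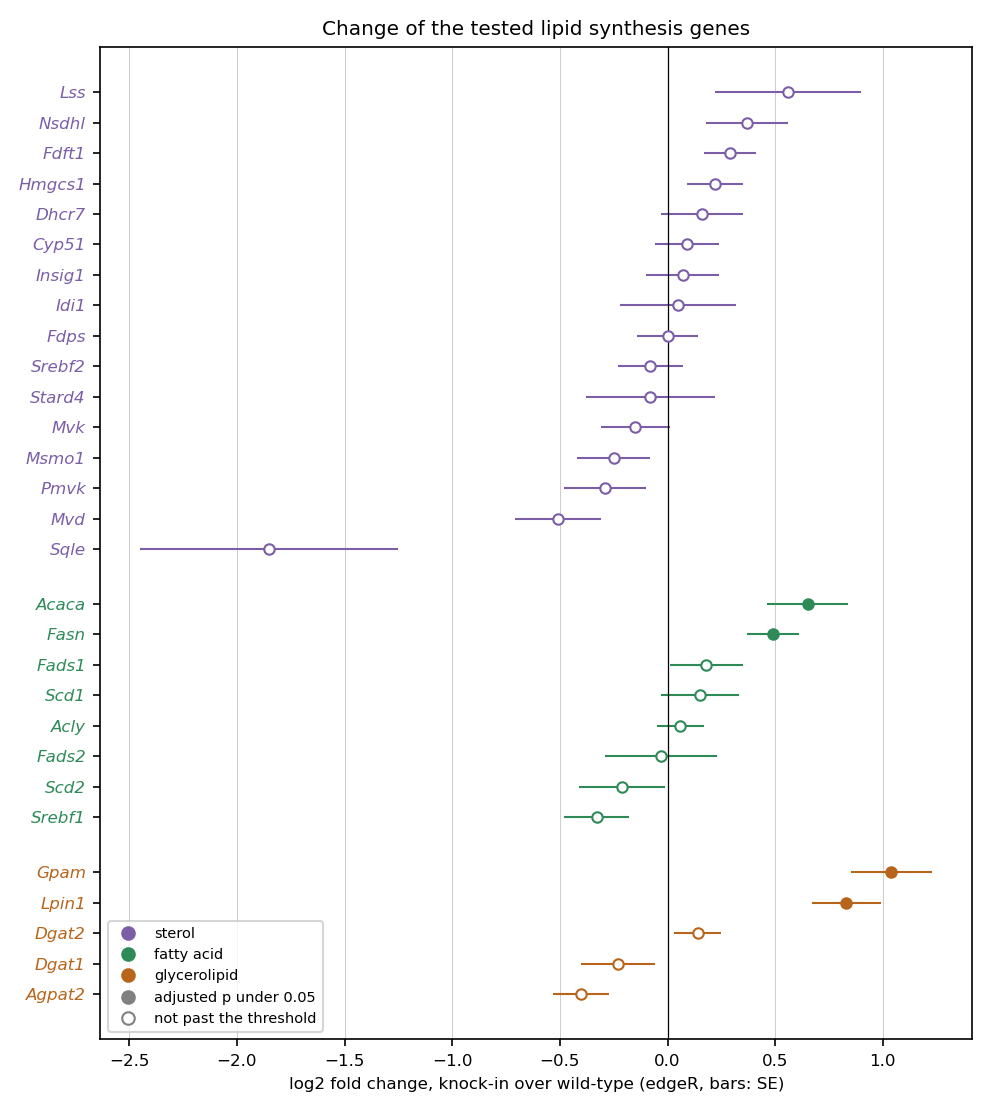
Log2 fold change of knock-in over wild-type hearts for the 29 tested genes (points, with SE bars from edgeR), sorted within each branch and coloured by branch. Filled points (Gpam, Lpin1, Acaca and Fasn) passed an adjusted p of 0.05, and all 16 sterol genes are open.

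In the fatty acid branch, 2 of 8 tested genes rose, both enzymes of palmitate synthesis. Fasn, fatty acid synthase (chr11:120805846-120824547, minus strand), had 30.5, 31.3 and 29.5 CPM in knock-in hearts, against 22.1, 19.7 and 23.3 CPM in wild-type hearts. Replicates lay close together in each group and the groups did not overlap. The increase was 1.40-fold (log2 0.49 ± 0.12 SE, edgeR adjusted p = 0.0289). Acaca, acetyl-CoA carboxylase 1, which makes the malonyl-CoA that Fasn uses, had 16.1, 16.3 and 20.6 CPM in knock-in hearts, against 9.73, 9.34 and 14.6 CPM in wild-type hearts. Wild-type heart 3 stood nearer to the knock-in hearts than to the other wild-type hearts. The increase of Acaca was 1.57-fold (log2 0.65 ± 0.19 SE, edgeR adjusted p = 0.0462). Neither gene passed without knock-in heart 2 (edgeR adjusted p = 0.128 for Fasn and 0.121 for Acaca), knock-in heart 3 (0.0767 and 0.163), wild-type heart 1 (0.109 and 0.2) or wild-type heart 2 (0.154 and 0.199). Upper-quartile scaling gave 0.0503 for Fasn and 0.0636 for Acaca.

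Both increases depended on the position in the transcript. For Fasn, 31 of 36 bins with enough reads had a higher mean in knock-in hearts, with ratios up to 2.83. The one of these nearest the 3′ end had a ratio of 0.632. The 5′ part of the Fasn exons held 222, 238 and 306 counts in knock-in hearts and 62, 90 and 160 counts in wild-type hearts. The 3′ part held 280, 302 and 271 counts in knock-in hearts and 357, 267 and 261 counts in wild-type hearts. Fits gave a log2 fold change of 1.04 for the 5′ part (edgeR adjusted p = 0.0251) and 0.08 for the 3′ part (edgeR adjusted p = 0.826). The groups did not overlap in the 5′ part and did in the 3′ part.

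For Acaca, 9 of 70 bins had enough reads, all with their middle within 3906 bases of the 3′ end of 17.1 kb of exons. Of these, 8 had a higher mean in knock-in hearts, and the one nearest the 3′ end, of 2086 bases, had a ratio of 0.83. The 5′ part of the Acaca exons held 95, 73 and 110 counts in knock-in hearts and 19, 15 and 53 counts in wild-type hearts. A single fragment can be counted in several of its short bins, so these sums overstate the number of fragments. The log2 fold change of Acaca was 1.42 in the 5′ part of the exons (edgeR adjusted p = 0.0312), and 0.53 in the 3′ part (edgeR adjusted p = 0.0989). The 250 bases before the Fasn start are shown because Fasn is an established SREBP target that rose here; capitals mark CCAAT boxes at 90, 62 and 59 bases before the start, of which the last pair overlap.
Fasn (chr11:120824548-120824797, minus strand): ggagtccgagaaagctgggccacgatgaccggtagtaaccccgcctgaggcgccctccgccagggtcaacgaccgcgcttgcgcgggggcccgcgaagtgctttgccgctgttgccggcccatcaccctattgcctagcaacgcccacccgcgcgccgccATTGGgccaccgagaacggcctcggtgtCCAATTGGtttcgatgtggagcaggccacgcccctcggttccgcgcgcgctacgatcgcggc

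The other members of the fatty acid branch did not pass the test. Srebf1, which encodes SREBP-1, the activator of fatty acid synthesis genes, had 29.5, 34.0 and 24.6 CPM in knock-in hearts, against 42.2, 33.3 and 35.5 CPM in wild-type hearts (log2 -0.33 ± 0.15 SE, edgeR adjusted p = 0.16). The groups overlapped through knock-in heart 2. Its ratio fell along the transcript as in Fasn: the last bin had a ratio of 0.458, and the bins of the 5′ part gave a log2 fold change of -0.05 (edgeR adjusted p = 0.844). Srebf1 has separate first exons for its 1a and 1c forms. The 1a exon held 16, 27 and 15 counts in knock-in hearts and 13, 14 and 11 counts in wild-type hearts (exact permutation p = 0.2, two-sided). The 1c exon, the form usual in liver, held 4, 6 and 11 counts in its highest bin in knock-in hearts and 4, 5 and 7 counts in wild-type hearts (exact permutation p = 0.6, two-sided). No difference in either form was detected at these counts.

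Acly, ATP citrate lyase, which supplies cytosolic acetyl-CoA to both the sterol and the fatty acid branch, had 35.8, 40.5 and 38.5 CPM in knock-in hearts, against 37.2, 35.1 and 37.6 CPM in wild-type hearts (log2 0.06 ± 0.11 SE, edgeR adjusted p = 0.763). The stearoyl-CoA desaturases Scd1 and Scd2 put the first double bond into saturated chains. Their log2 fold changes were 0.15 ± 0.18 and -0.21 ± 0.20 (SE), with edgeR adjusted p-values of 0.612 and 0.526. Fads1 and Fads2, the desaturases of polyunsaturated fatty acids, had log2 fold changes of 0.18 ± 0.17 and -0.03 ± 0.26 (SE), with edgeR adjusted p-values of 0.531 and 0.963. All 5 genes had groups that overlapped. Elovl6, which elongates palmitate, had 3 to 12 counts per heart and was not tested.

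No sterol gene passed the threshold. At an unadjusted edgeR p under 0.05 there were 3 of 16, namely Fdft1, Mvd and Sqle. Positive and negative log2 fold changes were equally frequent, with 8 each, and the median was 0.03, beside -0.004 over all genes tested. DESeq2 called 0 sterol genes, and limma-voom, which called 11.4% of all genes, called only Sqle, as lower. With offsets for exonic length and GC content, Fdft1 passed as higher (log2 0.37, edgeR adjusted p = 0.0342) and Sqle as lower (edgeR adjusted p = 0.0422). The per-heart mean of the centred log2 CPM of the branch was -0.04, -0.07 and -0.01 in knock-in hearts and 0.07, -0.02 and 0.07 in wild-type hearts.

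Of the regulators, Srebf2, which encodes SREBP-2, the main activator of sterol genes, had 13.4, 15.8 and 13.2 CPM in knock-in hearts, against 13.8, 14.4 and 16.9 CPM in wild-type hearts (log2 -0.08 ± 0.15 SE, edgeR adjusted p = 0.76). Insig1, a SREBP target whose protein retains SREBPs, had 14.7, 12.7 and 12.4 CPM in knock-in hearts, against 10, 12.7 and 15.2 CPM in wild-type hearts (log2 0.07 ± 0.17 SE, edgeR adjusted p = 0.835). Stard4, a cytosolic sterol carrier, was low, at 2.42 to 5.20 CPM in knock-in and 2.69 to 4.94 CPM in wild-type hearts. All 3 had groups that overlapped.

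Along the mevalonate steps, Hmgcs1 had 22.3, 24.9 and 25.3 CPM in knock-in hearts, against 20.7, 18.5 and 22.9 CPM in wild-type hearts (log2 0.22 ± 0.13 SE, edgeR adjusted p = 0.307). Its groups overlapped only between knock-in heart 1 and wild-type heart 3. All 9 bins of Hmgcs1 before the last had a higher mean in knock-in hearts, and the last, of 1698 bases, had a ratio of 0.809. Insig1 showed the same split, with a ratio of 0.809 in its last bin. Mevalonate kinase (Mvk), phosphomevalonate kinase (Pmvk), isopentenyl diphosphate isomerase (Idi1) and farnesyl diphosphate synthase (Fdps) had overlapping groups and log2 fold changes between -0.29 and 0.05. Mvd, mevalonate diphosphate decarboxylase, had 3.56, 3.13 and 3.15 CPM in knock-in hearts, against 4.49, 4.51 and 5.05 CPM in wild-type hearts (log2 -0.51 ± 0.20 SE, edgeR adjusted p = 0.109). Its groups did not overlap.

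Squalene is made by Fdft1, which had 34.9, 36.9 and 34.2 CPM in knock-in hearts, against 29.0, 26.8 and 30.8 CPM in wild-type hearts (log2 0.29 ± 0.12 SE, edgeR adjusted p = 0.131). The groups of Fdft1 did not overlap. It had the highest level per length of the branch, with 12.4 CPM per kb in knock-in hearts and 10.1 in wild-type hearts. The next enzyme, squalene epoxidase (Sqle), a rate-limiting step, was barely detected. Its bins summed to 3, 2 and 14 counts in knock-in hearts, against 26, 18 and 22 counts in wild-type hearts. The groups did not overlap (log2 -1.85 ± 0.60 SE, edgeR adjusted p = 0.0662), but a single fragment can be counted in several of these bins, so the sums overstate the number of fragments. Lanosterol synthase (Lss) was also low, with 1.08, 1.83 and 1.18 CPM in knock-in hearts and 0.963, 0.896 and 0.900 CPM in wild-type hearts (log2 0.56 ± 0.34 SE, edgeR adjusted p = 0.302). Its groups did not overlap, with knock-in hearts higher.

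The enzymes that turn lanosterol into cholesterol showed no common direction. Nsdhl, a sterol dehydrogenase, had a log2 fold change of 0.37 ± 0.19 SE with groups that did not overlap (edgeR adjusted p = 0.232). Msmo1, a methylsterol oxidase, had one of -0.25 ± 0.17 SE, also without overlap (edgeR adjusted p = 0.37). Cyp51, lanosterol demethylase, and Dhcr7, which catalyses the last step to cholesterol, had overlapping groups and log2 fold changes of 0.09 ± 0.15 and 0.16 ± 0.19 (SE), with edgeR adjusted p-values of 0.73 and 0.62.

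Motifs were also read from promoter sequence, which is background to these genes and says nothing about the knock-in. RefSeq windows were matched for 21 of the 30 genes (27 windows, since some genes have several starts). Motifs were searched on both strands of the 250 bases before each start. CCAAT, the site of NF-Y, a cofactor of SREBPs, was found in 12 of 15 sterol windows, covering 12 of 12 sterol genes with a window. It was also found in 2 of 6 fatty acid and 1 of 3 glycerolipid genes with a window. Counted by window, the share over all 32851 mouse windows was 33.8%. The sterol regulatory element core TCACNCCAC was found only in Hmgcs1, against 1.05% of all windows. CACGTG, an E-box that SREBPs can also bind, was found in Dhcr7 and Insig1, against 6.02% of all windows. TNAAGGTCA, an element of estrogen-related receptors, was found in Hmgcs1 only, against 1.14% of all windows. Hmgcs1 and Insig1 are shown because they hold most of these motifs and are classical SREBP targets, and neither passed the test. In Hmgcs1, capitals mark the adjoining TNAAGGTCA (opposite strand, 246 bases before the start) and CCAAT matches at the left end, the sterol element 137 bases before the start, and further CCAAT boxes at 176 and 45 bases. In Insig1 they mark a CCAAT box at 216 bases and the E-box at 101 bases.
Hmgcs1 (chr13:119690101-119690350, plus strand): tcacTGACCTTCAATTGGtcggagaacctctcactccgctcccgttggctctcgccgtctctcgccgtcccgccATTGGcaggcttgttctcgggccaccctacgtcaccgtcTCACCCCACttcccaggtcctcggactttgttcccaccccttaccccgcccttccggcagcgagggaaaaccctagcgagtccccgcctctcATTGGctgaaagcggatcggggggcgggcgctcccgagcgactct
Insig1 (chr5:28071162-28071411, plus strand): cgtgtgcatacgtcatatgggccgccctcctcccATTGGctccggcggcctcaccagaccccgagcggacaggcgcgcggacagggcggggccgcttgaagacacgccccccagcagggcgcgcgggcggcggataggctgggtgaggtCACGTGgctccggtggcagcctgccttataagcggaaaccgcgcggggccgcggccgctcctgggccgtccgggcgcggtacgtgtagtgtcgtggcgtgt

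**Figure D3:**
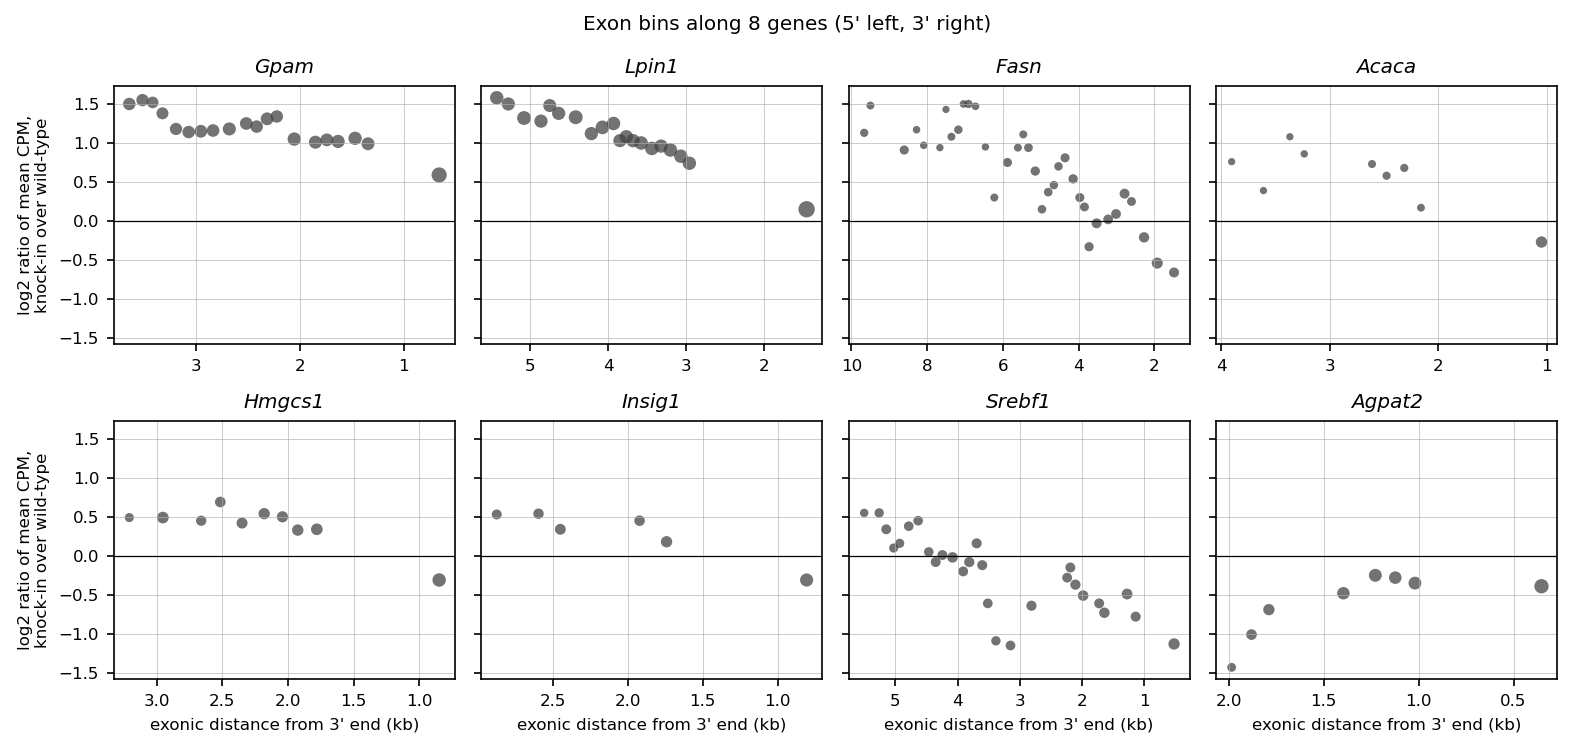
Log2 ratio of mean CPM in knock-in over wild-type hearts for exon bins of at least 40 bases and 60 counts in 8 genes. Bins are placed by the exonic distance of their middle from the 3′ end in kb (5′ at the left, 3′ at the right). Larger points have more counts. Ratios decline toward the 3′ end in all but Agpat2; Gpam stays above 0 throughout, Lpin1 ends near 0, and Fasn, Acaca, Hmgcs1, Insig1 and Srebf1 end below 0.

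The decline toward the 3′ end was general among the members. Of 24 members with at least 3 bins of 40 or more bases and 60 or more counts, 21 had a last bin with a lower ratio than the median of their other bins, and for 17 it was the lowest. The last bin was below 0 on the log2 scale in 21 members, and the median of the other bins was above 0 in 16. The share of all genes with such a decline was not counted, so these numbers do not show a trait of the members. Coverage over 1700 long genes differed between the groups in the same direction. Wild-type heart 3, with the lowest 3′ to 5′ ratio of the wild-type hearts, also had the highest wild-type level of Gpam, Lpin1, Fasn and Acaca. Across all 6 hearts, the order of Gpam and of Lpin1 levels was the reverse of the order of the coverage ratios, while Fasn and Acaca departed from it within both groups. The levels of these genes and the coverage ratios each separated the groups, so only the order within a group could vary. A link between level and coverage was not tested.

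**Figure D4:**
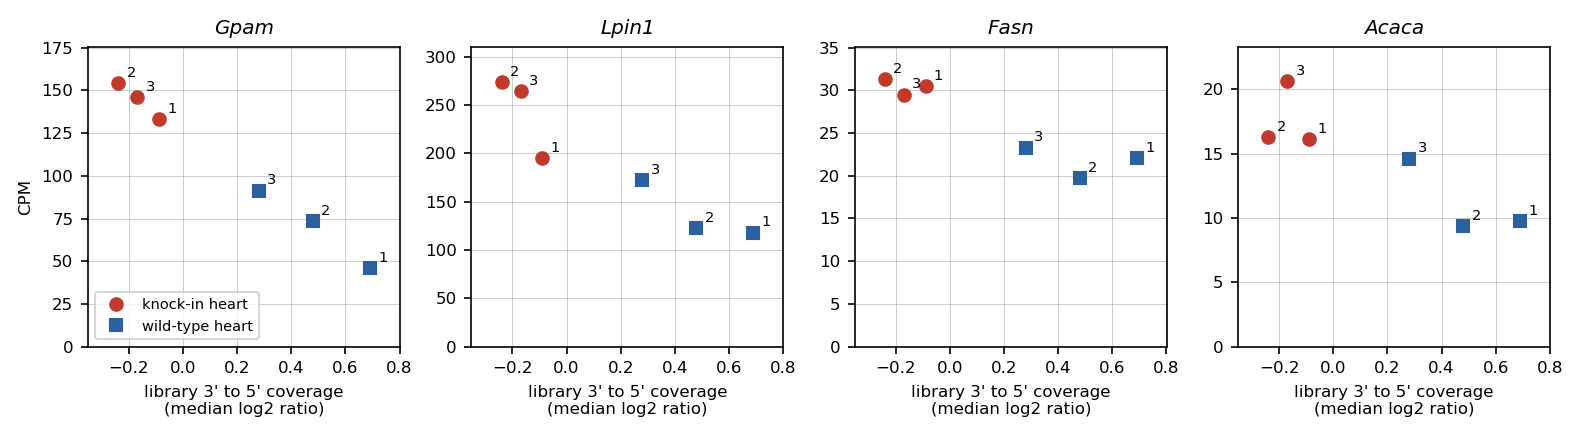
Level of Gpam, Lpin1, Fasn and Acaca in CPM against the library's median log2 ratio of counts in the 3′ to the 5′ part of the exons, for knock-in hearts (red circles) and wild-type hearts (blue squares), numbered by replicate. Knock-in libraries have ratios from -0.24 to -0.09 and wild-type libraries from 0.28 to 0.69, and wild-type heart 3 is the nearest to the knock-in hearts on both axes in each panel.

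**Figure D5:**
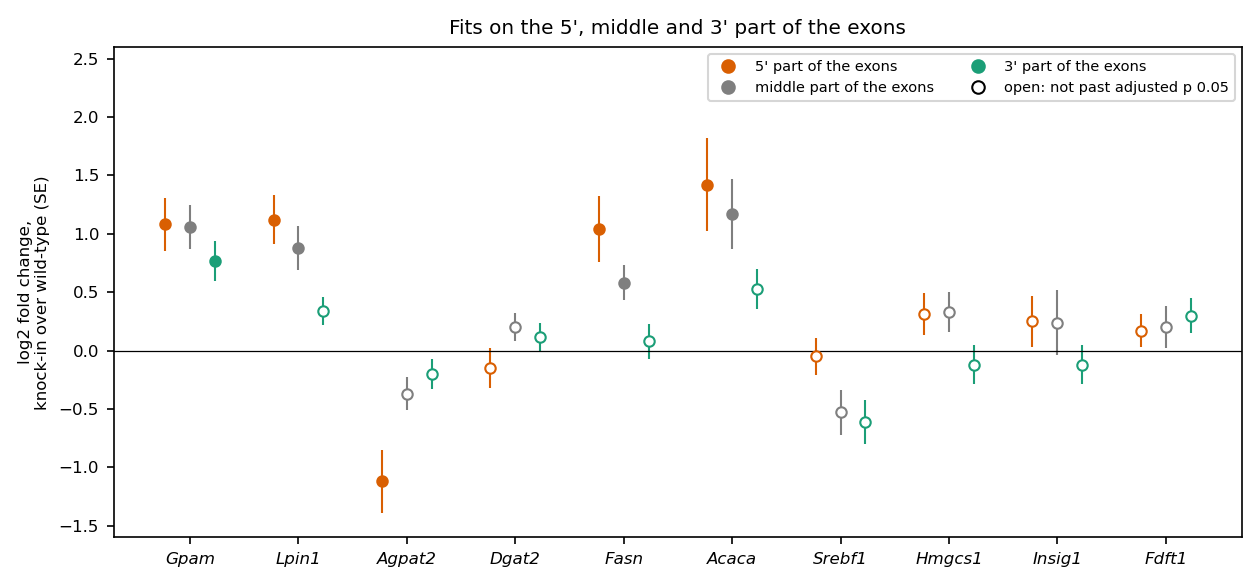
Log2 fold change of knock-in over wild-type hearts (SE bars) from separate edgeR fits on the bins of the 5′, middle and 3′ part of the exons, for 10 genes. Gpam is filled (adjusted p under 0.05) in all 3 parts; Lpin1, Fasn and Acaca are filled in the 5′ and middle parts only, and Agpat2 in the 5′ part only.

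On the 3′ part of the exons, 1 member, Gpam, passed the test as higher and 0 as lower, against 2.48% and 1.51% of 9815 genes. On the 5′ part the same fit called Gpam, Lpin1, Fasn and Acaca higher and Agpat2 lower, against 8.47% and 6.61% of 10942 genes. On the middle part it called Gpam, Lpin1, Fasn and Acaca higher and 0 lower, against 6.33% and 3.2% of 11224 genes. Fewer genes of any kind were called at the 3′ end.

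Other genes of the same pathways were read from lists that hold no member. Their counts stand beside 6.74% of all genes tested that rose and 4.09% that fell. Of 27 tested genes of other sterol steps, transport and regulation, 4 rose and 1 fell, with a median log2 fold change of 0.06. Abca1, the cholesterol efflux pump, had 23.4, 32.3 and 34.7 CPM in knock-in hearts, against 17.9, 13.7 and 20.1 CPM in wild-type hearts (log2 0.81 ± 0.18 SE, edgeR adjusted p = 0.0179). Npc1, which exports cholesterol from lysosomes, rose by 0.55 on the log2 scale, and Insig2, the homologue of Insig1, by 0.40. Nr1h3, the sterol-sensing receptor LXRα, fell to 18.3, 11.8 and 13.2 CPM in knock-in hearts, against 27.4, 22.9 and 23.2 CPM in wild-type hearts (log2 -0.76 ± 0.17 SE, edgeR adjusted p = 0.0187). At this threshold, none of the sterol genes called is an enzyme of cholesterol synthesis. The enzymes that missed it are not thereby shown to be unchanged.

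Of 25 tested genes of other fatty acid steps, 4 rose and 0 fell, with a median log2 fold change of -0.12. Acacb, acetyl-CoA carboxylase 2, whose malonyl-CoA inhibits entry of fatty acids into mitochondria, had 334, 410 and 397 CPM in knock-in hearts, against 244, 252 and 323 CPM in wild-type hearts (log2 0.48 ± 0.13 SE, edgeR adjusted p = 0.035). Me1, malic enzyme, a source of NADPH, rose by 0.42 on the log2 scale. Mlxip, a glucose-responsive transcription factor, rose by 0.53, and Scd4, a desaturase with expression in heart, by 1.12.

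Of 27 tested genes of other glycerolipid and phospholipid steps, 8 rose and 2 fell, with a median log2 fold change of 0.20. Lclat1, a lysocardiolipin acyltransferase, had 79.3, 84.0 and 93.2 CPM in knock-in hearts, against 38.2, 44.3 and 52.2 CPM in wild-type hearts (log2 0.93 ± 0.13 SE, edgeR adjusted p = 0.00464). Pcyt1a, which limits phosphatidylcholine synthesis, had 95.1, 105 and 117 CPM in knock-in hearts, against 56.1, 66.2 and 76.3 CPM in wild-type hearts (log2 0.68 ± 0.13 SE, edgeR adjusted p = 0.0107). Cds2, a CDP-diacylglycerol synthase, rose by 0.72 on the log2 scale, and Plpp1, a lipid phosphate phosphatase, fell by 0.52. On the 3′ part of the exons, the 3 lists held 1, 0 and 1 genes that rose and 1, 0 and 0 that fell, of 22, 22 and 23 tested. Over all genes tested on that part, 2.48% rose and 1.51% fell.

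Markers of other cell types moved as well, and their part in the results was not tested. Of 7 cardiomyocyte markers 0 were called, and their summed level was 87600 to 93600 CPM in knock-in hearts and 76600 to 82500 CPM in wild-type hearts. Of 12 adipocyte markers 2 were tested; Cidea rose (26.5 to 31.2 CPM in knock-in, 19.6 to 22.3 CPM in wild-type hearts). The defining fat-cell genes Adipoq, Plin1, Cidec and Lep summed to at most 0.131 CPM in knock-in hearts and 0.450 CPM in wild-type hearts, and Lep was at 0 in all. These 4 genes were thus at or near 0 in both groups. Among 7 endothelial markers Cldn5 and Emcn fell (sums 347 to 545 CPM in knock-in and 463 to 655 CPM in wild-type hearts). Of 6 smooth muscle markers Acta2, Tagln and Cnn1 fell (sums 263 to 475 CPM in knock-in and 476 to 513 CPM in wild-type hearts). Of 6 macrophage markers Lyz2 fell (sums 165 to 173 CPM in knock-in and 199 to 226 CPM in wild-type hearts). Of 6 platelet and blood markers Ppbp, Pf4 and Itga2b fell and Hbb-bs rose (sums 667 to 1260 CPM in knock-in and 532 to 713 CPM in wild-type hearts). None of 6 fibroblast and 4 Schwann markers tested was called. Fibroblast sums were 535 to 645 CPM in knock-in and 520 to 555 CPM in wild-type hearts, and Schwann sums 6.20 to 7.30 CPM in knock-in and 7.74 to 8.77 CPM in wild-type hearts. The 4 hepatocyte markers summed to at most 0.456 CPM in any heart and were not tested.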

How the data were processed

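RNA from 3 knock-in and 3 wild-type hearts was isolated with a column kit and made into NEBNext Ultra II libraries, per the labels' protocols. The authors deposited whole-number counts of reads per exon bin without normalization. GRCm38.p6, STAR, featureCounts, Subread 1.5.2 and DESeq2 are named in the submitters' processing notes; for their order, settings and any use of strand nothing is stated, so reads of antisense partners cannot be told apart. Columns were matched by the library number in the titles, and replicate numbers follow that order only.

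Counts of 425461 bins were summed to 48005 gene identifiers, of which 1194 join overlapping genes. Srebf1 and Scd2, each joined to a miRNA, were kept whole, and Fdps was separated from Rusc1 by its 27 own bins of 58; a readthrough transcript there cannot be told apart. How reads shared by close paralogs such as Scd1 to Scd4 were assigned is not given. Positions come from GENCODE M21. Within a group, every pair of libraries differed by more than counting noise (chi-square of 15.1 to 42.9 for each degree of freedom). Whether hearts were from separate litters is not stated, and p-values measure the spread between these hearts.

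Genes were filtered with filterByExpr, scaled by TMM and fitted with the robust quasi-likelihood test of edgeR 4.0.16 in R 4.3.3, with Benjamini-Hochberg adjustment over 13067 genes and a threshold of 0.05. The SE follows from the fold change and its F statistic. CPM values use TMM-scaled library sizes. Of 21 alternatives, 17 were planned and 4, by position in the transcript, were chosen after seeing the data; they include DESeq2 1.42.0 and limma-voom 3.58.1. The edgeR fit was also run on simulated gene counts. These held no coverage difference between the groups, so that run says nothing about the effect of coverage. The members and lists were chosen with earlier results of these data known. All 30 members are named, the targeted gene, and up to 4 genes per other list by smallest p past the threshold, with defining fat-cell markers.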

Additional observations from a re-analysis of the deposited data

How the results depend on the processing

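Gpam rose under 21 of 22 settings and missed the threshold without knock-in replicate 2 (edgeR adjusted p = 0.0553). Lpin1 passed in 15 of 21 settings, Fasn in 13 of 20 and Acaca in 12 of 21. Lpin1 was lost without knock-in replicate 2 (0.0729), wild-type replicate 1 (0.0665) or wild-type replicate 2 (0.0696); Fasn without knock-in replicates 2 (0.128) or 3 (0.0767) or wild-type replicates 1 (0.109) or 2 (0.154); Acaca without knock-in replicates 2 (0.121) or 3 (0.163) or wild-type replicates 1 (0.2) or 2 (0.199), all edgeR adjusted p-values. Leaving out 1 heart moved the share of all genes called between 1.23% (without knock-in replicate 2) and 18.5% (without wild-type replicate 3). Beside 4 members higher, counts were 2 with upper-quartile scaling (which moved the median of all genes to -0.078) and 1 each with the highest bin only, the last 1000 bases, bins reaching into them, and the 3′ part, and 5 with length and GC offsets, where Fdft1 (edgeR adjusted p = 0.0342) and Dgat2 (0.0452) passed and Acaca did not (0.0679); leaving out hearts gave 0 to 4. Beside 0 lower, counts were 1 with upper-quartile scaling, DESeq2, limma-voom, a mean CPM of at least 1, the highest bin (Srebf1, adjusted p = 0.0271), length and GC offsets, and the 5′ part, and 2 with no filter (Sqle and Agpat2); leaving out hearts gave 0 to 1. The sterol median of 0.03 became -0.05 with upper-quartile scaling, -0.09 with the highest bin, -0.08 in the last 1000 bases and in the 3′ part, 0.15 in the middle part, -0.12 for bins reaching the last 1000 bases and -0.09 as a mean (-0.05 to 0.07 leaving out hearts). The fatty acid median of 0.11 became -0.19 with the highest bin, 0.25 in the 5′ and -0.04 in the middle part (0.04 to 0.11 leaving out hearts). The glycerolipid median of 0.14 became 0.07 with upper-quartile scaling or the highest bin, 0.04 in the last 1000 bases, 0.30 with offsets, -0.15 in the 5′ part and 0.28 as a mean (0.05 to 0.21 leaving out hearts). Genes called in the other sterol list (5) became 1 in the last 1000 bases and 0 with the highest bin; fatty acid (4) 0 and 0; glycerolipid (10) 0 and 5; and cell type markers (11) 7 and 7. Fewer genes were tested at the 3′ end. A long last bin, such as that of Scd1 with 3668 bases, was not counted there when its middle lay too far from the end. Of single genes, 60 log2 fold changes turned sign. With the highest bin these were Fasn -0.39, Acaca -0.13, Acly -0.19, Hmgcs1 -0.17, Fdps 0.29, Dhcr7 -0.57, Cyp51 -0.02, Nsdhl -0.21, Msmo1 0.19 and Insig1 -0.17. In the last 1000 bases they were Fads2 0.23, Hmgcs1 -0.07, Fdps 0.11, Dhcr7 -0.29, Nsdhl -0.10, Msmo1 0.07 and Insig1 -0.08. For bins reaching into them they were Acaca -0.09, Fads2 0.16, Hmgcs1 -0.12, Fdps 0.05, Dhcr7 -0.34, Nsdhl -0.16, Msmo1 0.02 and Insig1 -0.13. In the 5′ part they were Scd2 0.05, Idi1 -0.44, Fdps 0.23, Mvk 0.20, Cyp51 -0.10 and Dgat2 -0.15; in the middle part Acly -0.04, Scd1 -0.09, Fads1 -0.03 and Fdps 0.10; in the 3′ part Fads2 0.31, Hmgcs1 -0.12, Fdps 0.06, Nsdhl -0.15 and Insig1 -0.12. With offsets they were Srebf2 0.02, Fads2 0.24 and Mvk 0.04, and with upper-quartile scaling Acly -0.01 and Idi1 -0.02. Leaving out hearts turned Fads2 (-0.25 to 0.08), Idi1 (-0.11 to 0.26), Insig1 (-0.10 to 0.22), Stard4 (-0.45 to 0.13), Fdps (-0.13 to 0.07) and Srebf2 (-0.17 to 0.01). Apart from what the settings themselves leave out, the cause was not tested. No paired analysis was possible because the labels give no number shared by hearts of both groups.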
